A study of Mus musculus with 9 samples.

Results

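The interferon gamma-induced GTPases are taken here as 10 genes of 2 families, the guanylate-binding proteins Gbp2, Gbp3, Gbp5, Gbp6 and Gbp7 and the immunity-related GTPases Igtp, Irgm1, Irgm2, Iigp1 and Tgtp1. They were chosen by symbol from the deposited count table, and all 10 are among its 40879 gene symbols. The data are 3′ mRNA sequencing of whole spinal cord from WT mice, in 3 groups of 3 libraries. The first group is naive mice. The other groups have EAE (experimental autoimmune encephalomyelitis), where myelin is the target of an immune attack on the cord. One EAE group was given vehicle and the other GV1001, a peptide from the telomerase protein. The strain, sex, age, way of inducing EAE, peptide dose and day of sampling are not given in the labels used here. Nor do the labels say whether replicates are separate animals, so p-values measure only the spread between these libraries.

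Both families are large or mid-sized GTPases that cells make in quantity when interferon gamma binds its receptor, which activates JAK kinases. Gamma-activated sequences (GAS) in promoters answer to this signal, and interferon regulatory factors bind interferon-stimulated response elements (ISRE). The proteins gather on the membranes of vacuoles that hold intracellular parasites and bacteria and help to break them open. In the inflamed cord, T cells are a main source of interferon gamma, and microglia, infiltrating myeloid cells, endothelium and astrocytes can all respond to it.

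The promoter stretch that the members share is shown first, because it holds a known binding element of interferon-activated factors. RefSeq promoter windows (build GRCm38.p6, 250 bases before to 50 after an annotated start) were matched by symbol for 8 of the 10 genes, all but Gbp6 and Iigp1. Each line is 40 bases, read 5′ to 3′ on the strand where the ISRE core reads forward. The core searched is GAAA, any 2 bases and GAAA again, and every match to it is in capitals.
Gbp2 (chr3:142620589-142620628, minus strand): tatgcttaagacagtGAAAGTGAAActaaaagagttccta
Gbp3 (chr3:142559990-142560029, minus strand): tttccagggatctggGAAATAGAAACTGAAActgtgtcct
Gbp5 (chr3:142496754-142496793, minus strand): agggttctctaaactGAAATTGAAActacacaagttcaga
Gbp7 (chr3:142530268-142530307, minus strand): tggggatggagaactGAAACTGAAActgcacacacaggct
Igtp (chr11:58199507-58199546, plus strand): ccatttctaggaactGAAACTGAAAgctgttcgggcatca
Irgm1 (chr11:48871421-48871460, minus strand): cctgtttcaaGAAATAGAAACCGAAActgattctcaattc
Irgm2 (chr11:58214898-58214937, plus strand): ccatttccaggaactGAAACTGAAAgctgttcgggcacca
Tgtp1 (chr11:48992299-48992338, minus strand): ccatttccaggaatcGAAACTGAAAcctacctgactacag

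The core was searched on both strands. All 8 genes had a match, in 8 of their 9 windows, against 3.44% of 32851 promoter windows of the same length. The stricter form, with CT between the repeats, stood in 5 of the 9 windows, those of Gbp3, Gbp7, Igtp, Irgm2 and Tgtp1, against 0.231% of all windows. The GAS form TTCNNNGAA, which reads the same on both strands, stood in 5 of the 9, those of Gbp5, Gbp7, Igtp, Irgm2 and Tgtp1, against 8.3% of all. Gbp3 and Irgm1 each had 2 overlapping core matches. The Igtp and Irgm2 stretches, from neighbouring genes, were identical at 38 of 40 positions. The core nearest the start ended between 15 bases (Irgm1) and 156 bases (Gbp5) before it. A match describes the letters in the window and does not show that a factor binds there.

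**Figure D1:**
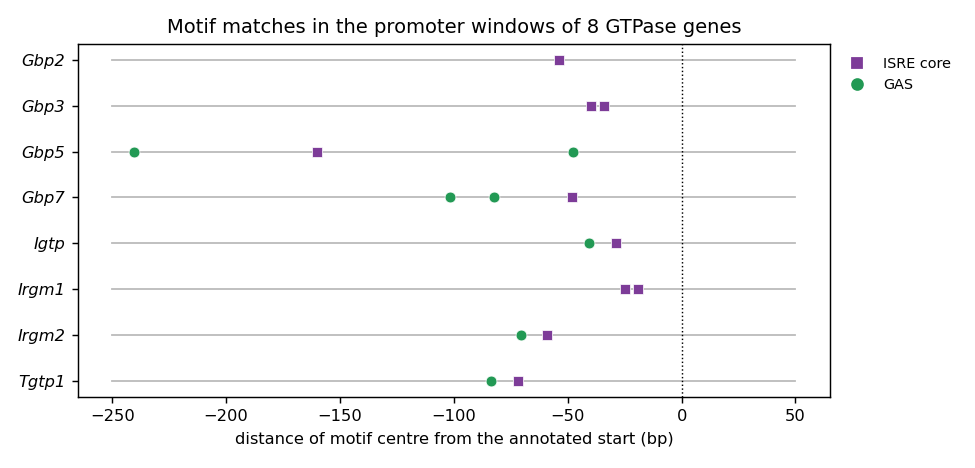
Positions of matches to the ISRE core (squares) and the GAS form (circles) in the promoter windows of 8 GTPase genes; the x axis is the distance of the match's centre from the annotated start in bp. Each of the 8 genes has an ISRE core before its start, and 5 of them also have a GAS match.

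Total counts per library ranged from 5247246 to 6174870, and 3 counts, taken as the floor, equal 0.486 to 0.572 CPM, the unit used for all levels here, which divides a gene's reads by its library's total. Floors and intervals cover counting error only. Of 40879 symbols, 15351 had enough counts to be tested, among them 8 of the 10 GTPases. Gbp6 and Tgtp1 were too sparse. Gbp5 was over the filter's level of 1.78 CPM in 1 of 3 naive libraries and entered the test through the diseased ones, so it had to differ to some degree. The other 7 were over it in all 9 libraries. Astrocyte markers (10 of 10 listed) and microglia markers (9 of 10 listed are in the table, and 9 had counts) were present in every library. Over all genes, the chi-square per gene between replicates was 2.52 to 4.24 in naive, 13.9 to 34.9 in vehicle and 7.14 to 14.3 in GV1001 libraries. Vehicle replicate 1 and GV1001 replicate 1 were each farthest from the others of their group.

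Summed over the 10 genes, the GTPases took 39.2 to 43.2 CPM in naive cord, from 217 to 250 counts. The same sum was 1140, 128 and 156 CPM in vehicle replicates 1 to 3 and 55.7, 458 and 83.6 CPM in GV1001 replicates 1 to 3. Relative to the naive mean these were 27.7-, 3.11- and 3.78-fold with vehicle and 1.35-, 11.1- and 2.03-fold with GV1001. All 6 EAE libraries were above all naive libraries for this sum, but the spread within each EAE group was wider than the gap between the groups' means.

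**Figure D2:**
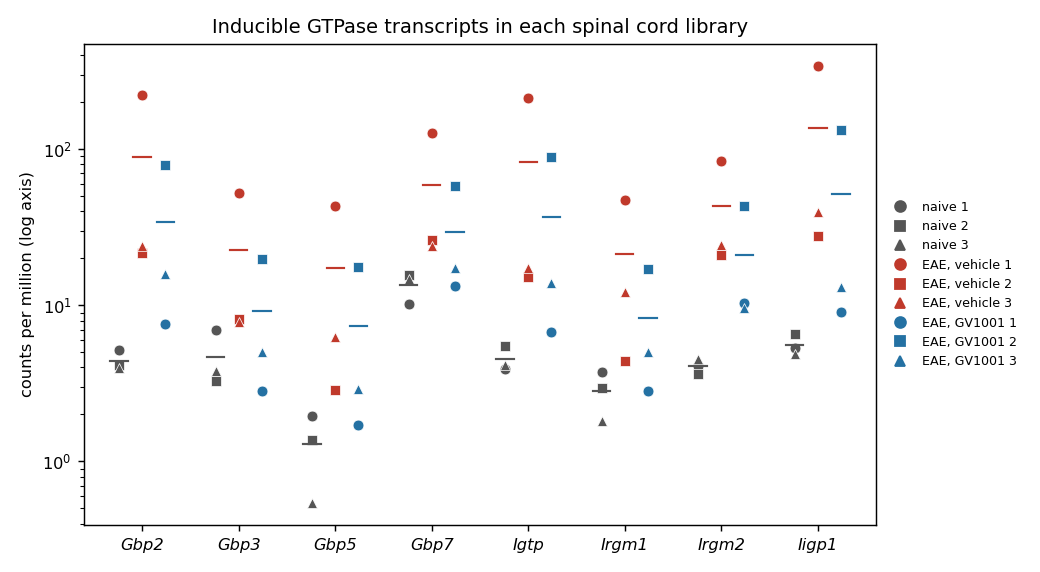
CPM (log axis) of the 8 tested GTPases in each of the 9 libraries; colours are groups, marker shapes are replicates and short lines are group means. Vehicle replicate 1 is the highest and GV1001 replicate 2 the second highest library for all 8 genes.

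Among the guanylate-binding proteins, Gbp2, which coats vacuoles that hold Toxoplasma, was at 5.17, 4.14 and 3.97 CPM in the naive libraries. It was at 222, 21.7 and 23.9 CPM with vehicle and at 7.56, 79 and 15.9 CPM with GV1001. Every EAE library lay above every naive one, and the vehicle and GV1001 ranges overlapped. In vehicle against naive the log2 fold change was 4.33 ± 1.19 (SE), with an adjusted p of 0.0902 by edgeR's quasi-likelihood test.

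Gbp5, known for promoting inflammasome assembly, was at 1.96, 1.38 and 0.541 CPM in naive cord, which are 11, 8 and 3 counts. It was at 43.3, 2.86 and 6.28 CPM with vehicle and 1.7, 17.6 and 2.92 CPM with GV1001. All vehicle libraries were above naive, whereas GV1001 replicate 1 lay within the naive range. The log2 fold change of vehicle against naive was 3.73 ± 1.29, with an adjusted p of 0.143 by edgeR.

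Gbp7 and Gbp3 had the smallest differences of the 8 tested GTPases. Naive libraries held Gbp7 at 10.2, 15.7 and 14.8 CPM, vehicle libraries at 127, 26.3 and 23.9 CPM, GV1001 libraries at 13.2, 58.5 and 17.3 CPM. Naive libraries held Gbp3 at 6.95, 3.28 and 3.79 CPM, vehicle libraries at 52.3, 8.2 and 7.84 CPM, GV1001 libraries at 2.83, 19.7 and 5.02 CPM. For both genes the vehicle libraries were above all naive ones. GV1001 replicate 1 was not, and for Gbp3 neither was GV1001 replicate 3. The log2 fold changes in vehicle against naive were 2.12 ± 0.73 for Gbp7 and 2.28 ± 0.89 for Gbp3, with adjusted p of 0.143 and 0.188 by edgeR.

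Gbp6 was at 0 counts in each naive library. With vehicle it had 29, 2 and 3 counts and with GV1001 7, 2 and 5. Against a floor of 3 counts over the naive group (0.177 CPM) it was at least 11.6-fold higher with vehicle and at least 4.61-fold higher with GV1001. Most vehicle counts were from replicate 1. In GENCODE M21 transcripts, all 50-base words of the last 300 bases of Gbp6 also occur in other genes, among them Gbp10 and Gbp9, so the assignment of 3′ reads to Gbp6 is uncertain.

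The Irgm proteins, which are named for a methionine in the nucleotide-binding loop, are known to sit on the cell's own membranes and to keep the other immunity-related GTPases from attacking them. Igtp, also called Irgm3, stood at 3.92, 5.52 and 4.15 CPM in naive cord, at 215, 15.2 and 17.3 CPM with vehicle and at 6.8, 89 and 13.9 CPM with GV1001. All 6 EAE libraries were above naive. The log2 fold change with vehicle was 4.18 ± 1.31, with an adjusted p of 0.114 by edgeR.

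Irgm2 had the lowest ratio of highest to lowest EAE library of the 8, 8.87. Its naive levels were 4.1, 3.63 and 4.51 CPM, against 84.8, 21.2 and 24.4 CPM with vehicle and 10.4, 43.4 and 9.55 CPM with GV1001. The lowest EAE library was more than 2 times the highest naive one. Its log2 fold change in vehicle against naive, 3.40 ± 0.78, had the smallest adjusted p of the 8, 0.0715 by edgeR, and without vehicle replicate 1 it was 2.42 with an adjusted p of 0.118.

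Irgm1, which is also needed for autophagy and for survival of stimulated lymphocytes, had naive levels of 3.74, 2.93 and 1.8 CPM, against 47.2, 4.38 and 12.2 CPM with vehicle and 2.83, 17.1 and 5.02 CPM with GV1001. Vehicle replicate 2 was only slightly above the highest naive library, and GV1001 replicate 1 was within the naive range. The log2 fold change with vehicle was 2.89 ± 0.93, with an adjusted p of 0.12 by edgeR.

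Iigp1, also called Irga6, is an effector that loads onto parasite vacuoles. Its naive levels were 5.35, 6.56 and 4.87 CPM. It reached 343, 28 and 39.6 CPM with vehicle and 9.07, 133 and 13.1 CPM with GV1001. All EAE libraries were above naive, and the highest of them was 37.8-fold above the lowest, the widest span of the 8 tested GTPases. The log2 fold change with vehicle was 4.61 ± 1.31, the largest of the 8, with an adjusted p of 0.0957 by edgeR.

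Tgtp1, or Irgb6, another effector, had very few counts. Naive libraries had 0, 0 and 4 counts, vehicle libraries 1, 0 and 0, and GV1001 libraries 0, 1 and 0. The ratio of vehicle to naive was 0.256, with an exact 95% interval of 0.0052 to 2.59, so no direction was detectable from these counts. Of the 50-base words in the last 300 bases of Tgtp1 transcripts, 79.2% also occur in other genes and 72.6% in Tgtp2, its near-identical copy. Tgtp2 had 7 counts in vehicle replicate 1 and none elsewhere. How the authors treated reads that fit both copies was not given in the sources used here. These counts therefore cannot be assigned to 1 copy with certainty, and they do not show that either transcript was absent. For the other members besides Gbp6, the shared part of the 3′ end was between 0 and 7.06% of words.

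Vehicle against naive asks which GTPase transcripts differ in disease. All 8 tested GTPases were higher in each vehicle library than in any naive library, whereas 13.6% of all genes tested were higher without overlap. All 8 fitted values were above 0, as were 49.5% of all genes. Their median log2 fold change was 3.56, with a range of 2.12 to 4.61, and the median over all genes was −0.0047. In edgeR 0 of 8 passed an adjusted p of 0.05, where 0.0195% of all genes did, and 8 of 8 had an unadjusted p under 0.05, against 11.3% of genes that were higher at that level. DESeq2 called 4 of the 7 members to which it gave an adjusted p, where it called 6.0% of all such genes. These were Gbp2, Gbp5, Gbp6 and Irgm2, all higher, with adjusted p of 0.0064, 0.045 and 0.0019 for Gbp2, Gbp5 and Irgm2, and Igtp and Iigp1 had no adjusted p. limma-voom called 0. Gbp5 entered the test through the diseased libraries, and Gbp6 has counts in those alone, so their place in these counts is no independent support.

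Vehicle replicate 1 set much of the size of these differences. Without it, the median log2 fold change was 1.77, and the 8 values ran from 0.72 for Gbp3 to 2.54 for Iigp1. Without vehicle replicate 2, the library with the least GTPase RNA of its group, edgeR called 6, namely Gbp2, Gbp5, Igtp, Irgm1, Irgm2 and Iigp1, and the share of all genes called was also higher, 10.4%. Blood markers, the globins and Alas2 (5 of 5 listed), took 4859 CPM in that library and 254 to 720 CPM in the other libraries, and their part in the result was not tested.

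**Figure D3:**
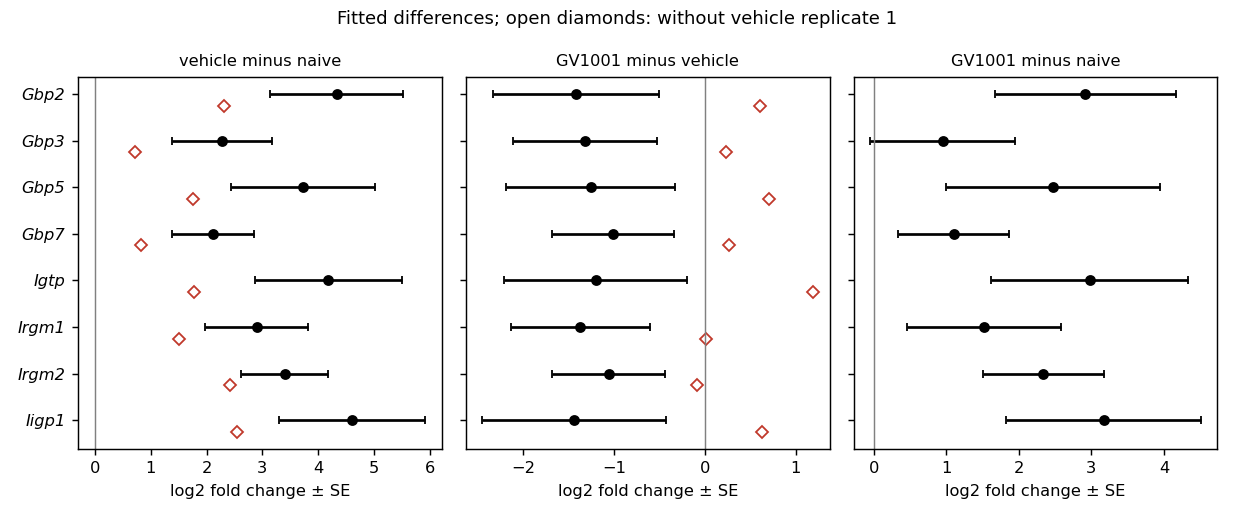
Fitted log2 fold changes with SE of the 8 tested GTPases in 3 comparisons; open diamonds are the values when vehicle replicate 1 is left out. Every vehicle-minus-naive value stays positive without that library, and 7 of the 8 GV1001-minus-vehicle values change sign.

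The comparison of GV1001 with vehicle asked whether the peptide changes these transcripts in EAE. The fitted values were lower with GV1001 for all 8 tested genes, where 48.6% of all genes were higher, and ran from −1.44 ± 1.01 for Iigp1 to −1.02 ± 0.67 for Gbp7, with a median of −1.29 beside −0.0088 over all genes. The groups overlapped for all 8 genes, whereas 5.03% of all genes tested were lower without overlap. edgeR called 0 of 8 at an adjusted p under 0.05, where it called 0 of 15351 genes (0%), and 0 of 8 had an unadjusted p under 0.05, against 9.08% of all genes. DESeq2, which called 0.0649% of all genes and gave no adjusted p for Igtp and Iigp1, and limma-voom also called 0. The smallest adjusted p was 0.607, for Irgm1. These values do not show that the groups were alike, since the SE of a log2 difference was 0.62 to 1.01.

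The direction rested on vehicle replicate 1 for all but Irgm2, and the size moved with other libraries too. Without vehicle replicate 1 the median was 0.44, and the value was positive for 7 genes, among them Igtp at 1.19 ± 0.78 and Iigp1 at 0.63 ± 0.81, while Irgm2 was at −0.09. Without GV1001 replicate 2 the median was −2.71, and without GV1001 replicate 1 it was −0.87. In the same libraries skeletal muscle markers (12 of 12 listed) summed to 139, 573 and 22 CPM with vehicle and to 5012, 1345 and 478 CPM with GV1001. Schwann cell markers (10 of 10) summed to 370, 1119 and 1840 CPM and to 1738, 1875 and 2598 CPM. Both sums were higher on average in the GV1001 libraries, and their part in the GTPase values was not tested.

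With GV1001 against naive, the question was what remained in treated mice. The fitted values of the 8 genes were all positive, as were 50.5% of all genes, and ran from 0.95 ± 1.00 for Gbp3 to 3.17 ± 1.34 for Iigp1, with a median of 2.40 beside 0.0019 over all genes. Gbp2, Igtp, Irgm2 and Iigp1, 4 of the 8, were higher in every GV1001 library than in any naive one, against 10.2% of all genes. edgeR called 0 of 8, as it called 0% of all genes, and 3 of 8 had an unadjusted p under 0.05, against 4.35% of genes that were higher at that level. DESeq2, again with no adjusted p for Igtp and Iigp1, called 0 members and 0.272% of all genes, and limma-voom called 0 members. Without GV1001 replicate 1 the median was 2.78. Without GV1001 replicate 2 it was 0.90, and Gbp3 was at −0.25 ± 1.13. This comparison shares the naive libraries with the first and the GV1001 libraries with the second.

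For both EAE groups together against naive, 6 libraries against 3, all 8 values were above 0, as were 49.0% of all genes. The median log2 fold change was 2.98, with Iigp1 at 3.89 ± 1.24, Gbp2 at 3.62 ± 1.14 and Igtp at 3.58 ± 1.24. The same 4 genes, Gbp2, Igtp, Irgm2 and Iigp1, were above all naive libraries in all 6 EAE libraries, against 5.25% of genes tested. edgeR called 0 of 8, where it called 0.00651% of all genes, with a smallest adjusted p of 0.17 for Irgm2. An unadjusted p under 0.05 was seen for 7 of 8, all but Gbp3, against 8.81% of genes that were higher at that level. DESeq2 called Gbp2, Gbp6 and Irgm2, 3 of 7 members with an adjusted p (Igtp and Iigp1 had none), and 3.19% of all genes, and limma-voom called 0.

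The members kept nearly the same order of libraries. Vehicle replicate 1 was highest and GV1001 replicate 2 second for 8 of 8 tested genes. The next library was vehicle replicate 3 for 6 genes and vehicle replicate 2 for 2, Gbp3 and Gbp7. GV1001 replicate 1 was the lowest EAE library for 7 genes, and GV1001 replicate 3 for Irgm2. GV1001 replicate 1 was above every naive library for 4 of the 8, Gbp2, Igtp, Irgm2 and Iigp1.

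The size of the difference was not the same for all members. In vehicle replicate 1, the level relative to the naive mean was 61.3-fold for Iigp1, 50.2-fold for Gbp2, 47.4-fold for Igtp and 33.4-fold for Gbp5. It was 20.8-fold for Irgm2, 16.7-fold for Irgm1, 11.2-fold for Gbp3 and 9.39-fold for Gbp7. In vehicle replicate 2, the order differed, with Irgm2 at 5.19-fold, Iigp1 at 5.01-fold, Gbp2 at 4.91-fold and Igtp at 3.37-fold. Irgm2 was thus above the other 3 in vehicle replicate 2 and below them in vehicle replicate 1. In vehicle replicate 2 its gaps to Iigp1 and Gbp2 were small, and no interval was computed for these ratios. In vehicle replicate 3 Irgm2, at 5.98-fold, was below Iigp1 at 7.08-fold and above Gbp2 at 5.4-fold and Igtp at 3.81-fold. In GV1001 replicate 3, where GTPase RNA was also moderate, Irgm2 was at 2.34-fold, beside Iigp1 at 2.35-fold and below Gbp2 at 3.58-fold and Igtp at 3.07-fold.

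The balance between the effector Iigp1 and the 3 Irgm regulators also differed between libraries. Iigp1 made up 31.2%, 35.2% and 31.8% of the summed counts of Iigp1, Igtp, Irgm1 and Irgm2 in the naive libraries, on totals of 85 to 108 counts. Its share was 49.7%, 40.7% and 42.4% with vehicle and 31.2%, 47% and 31.5% with GV1001. The exact (Clopper-Pearson) 95% intervals were 48.1 to 51.3% in vehicle replicate 1 and 44.6 to 49.5% in GV1001 replicate 2, above those of GV1001 replicates 1 (24 to 39.1%) and 3 (25.9 to 37.6%). The naive intervals, from 22.1% at the lowest to 45% at the highest, overlapped those of every EAE library but vehicle replicate 1. For GV1001 replicate 2 the overlap was narrow and with naive replicate 2 alone. This split was chosen after the values were seen and is a description, with no test between groups.

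**Figure D4:**
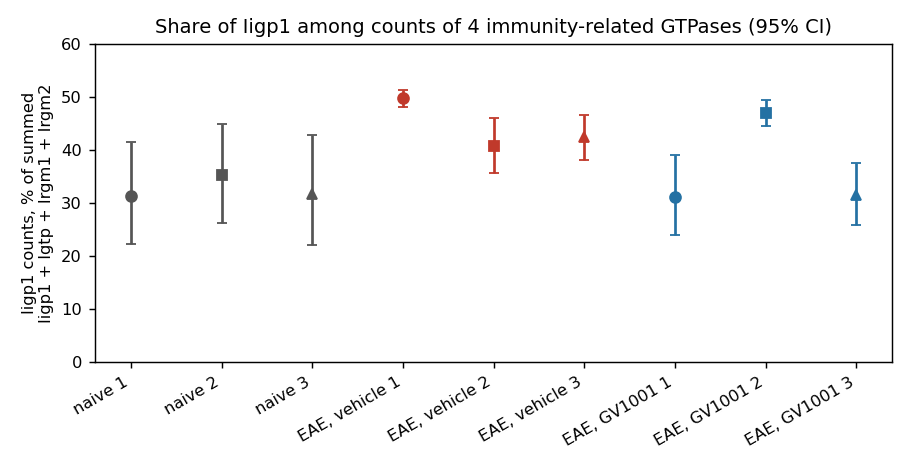
Share of Iigp1 (percent) among the summed counts of Iigp1, Igtp, Irgm1 and Irgm2 in each library, with exact 95% intervals. The share is 49.7% in vehicle replicate 1 and 47% in GV1001 replicate 2, and between 31.2% and 35.2% in the 3 naive libraries and GV1001 replicates 1 and 3.

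Within all GTPase counts, the share of Gbp7 was lower where the sum was higher. Naive libraries gave 24.6%, 36.4% and 37.8%, vehicle libraries 11.2%, 20.5% and 15.3%, and GV1001 libraries 23.7%, 12.8% and 20.7%. This share too was chosen after the values were seen. The lowest shares were in the same 2 libraries in which the sum was highest. In those 2 libraries the exact 95% intervals were 10.4 to 12% and 11.5 to 14.1%, below the lowest naive bound of 19.2%.

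Other genes of both families were taken from lists chosen by name. Of 6 other guanylate-binding proteins 2 were tested and 0 were called by edgeR in vehicle against naive, where it called 0.0195% of all genes. Gbp9 was at 1.74 ± 0.70 and Gbp4 at 1.89 ± 0.90. Of 21 listed symbols of other immunity-related and very large inducible GTPases, 14 are in the table, 6 were tested and 0 were called, with a median of 3.98. Ifi47, an effector also called Irgd, had naive levels of 2.32, 3.8 and 0.541 CPM, against 88.9, 5.15 and 9.41 CPM with vehicle and 2.27, 28.4 and 4.37 CPM with GV1001. Its log2 fold change in vehicle against naive was 3.93 ± 1.32. The very large GTPase Gvin3 was at 4.09 ± 1.08 and F830016B08Rik at 4.02 ± 1.06, whereas Irgq, a more distant relative, was at −0.35 ± 0.18. Gm4841 was at 4.515 ± 1.33. In naive libraries Gvin3 was at 0.535, 1.38 and 0.541 CPM, F830016B08Rik at 0.356, 0 and 1.8 CPM and Gm4841 at 0.535, 0 and 0.18 CPM. All of these entered the test through the diseased libraries, so they had to differ to some degree. The median of 3.98 rests in part on them.

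Upstream, the cytokine itself was barely detected. Ifng was at 0 counts in each naive library. It had 10, 0 and 0 counts with vehicle and 0, 1 and 0 with GV1001. Counts pooled over the vehicle group were at least 3.41-fold higher against 3 counts over the naive group. That bound rests on vehicle replicate 1 alone and does not hold for vehicle replicates 2 and 3. All 11 counts of Ifng lay in the 2 libraries with the most GTPase RNA. In the list of interferon gamma signalling (20 genes, 18 tested), edgeR called 0 in vehicle against naive, where it called 0.0195% of all genes. An unadjusted p under 0.05 was seen for 11, all higher, against 11.3% of all genes, and the median was 1.76.

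Within that list the receptor chains Ifngr1 and Ifngr2 were at 1.23 ± 0.43 and 0.57 ± 0.25 on the log2 scale in vehicle against naive, and the kinase Jak1 at 0.03 ± 0.13. Irf1, a factor that binds ISREs, was at 2.61 ± 0.76. The feedback inhibitor Socs3 was at 3.74 ± 0.82. The T cell attractant Cxcl9 was at 191, 6.29 and 11.7 CPM with vehicle from 2 counts in all naive libraries. Its ratio of pooled counts was 597 (exact 95% interval 165 to 4935, counting error only). The fitted log2 fold change, which takes in the spread between libraries, was 8.97 ± 2.31, with an adjusted p of 0.0732 by edgeR. Cxcl9 entered the test through the diseased libraries, so it had to differ to some degree. The highest library for Cxcl9 was again vehicle replicate 1 and the second GV1001 replicate 2.

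Of 20 listed genes of type I interferon signalling, 17 were tested in vehicle against naive and all 17 values were above 0, as were 49.5% of all genes. edgeR called 0, where it called 0.0195% of all genes, and 11 were higher with an unadjusted p under 0.05, against 11.3% of all genes. The median was 1.61. Mx1 was at 0 counts in each naive library. Usp18 was at 1.07, 1.21 and 1.26 CPM there, and Irf7 at 0.891, 1.55 and 3.25 CPM. All of these entered the test through the diseased libraries, so they had to differ to some degree. They are among the 11, and their place there is no independent support. Irf9, part of the complex that binds ISREs, was at 1.61 ± 0.48, the antiviral enzyme Rsad2 at 1.39 ± 0.37 and the receptor chain Ifnar2 at 0.85 ± 0.31. Unlike the GTPases, Rsad2 was highest in vehicle replicate 2, at 26.7 CPM, against 23.9 and 13.8 CPM in replicates 1 and 3. ISRE cores stood in the windows of 6 of 16 genes of this list and of 3 of 13 of the interferon gamma list, against 3.99% of all genes. The GAS form stood in those of 4 of 16 and 5 of 13, against 9.55% of all genes.

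The conjugation machinery, related to autophagy, places the GTPases on vacuoles. Of its 16 tested genes edgeR called 0 in vehicle against naive, where it called 0.0195% of all genes, and the median log2 fold change was 0.04. The most abundant, Gabarapl1, was at −0.36 ± 0.09 and Map1lc3a at −0.34 ± 0.11. Among 9 tested inflammasome partners 0 were called, 8 were higher with an unadjusted p under 0.05 (11.3% of all genes), and the median was 2.45. The nucleic acid sensor Zbp1 was at 5.37 ± 1.45, the adaptor Pycard at 3.38 ± 0.90 and the cytokine Il18 at −0.25 ± 0.17. Zbp1 was under the filter's level of 1.78 CPM in all naive libraries (0.178, 0 and 0.541 CPM). Any such gene entered the test through the diseased libraries and had to differ to some degree, so its place in these counts is no independent support. For these 6 lists, GV1001 against vehicle gave 0 calls by edgeR, as it did over all genes (0 of 15351, 0%).

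Immune cell markers were also highest in vehicle replicate 1. Microglia markers summed to 293 to 343 CPM in naive, 2713, 555 and 1252 CPM in vehicle and 328, 1114 and 487 CPM in GV1001 libraries. The single markers of this list differed widely. In vehicle replicate 1 they ran from 1.68-fold of the naive mean for Sall1 and 1.92-fold for P2ry12 to 18.7-fold for C1qa, so the sum does not stand for each marker. Monocyte and macrophage markers (10 of 10 listed) summed to 35.9 to 61.6 CPM in naive, 1135, 92 and 286 CPM in vehicle and 78.4, 329 and 117 CPM in GV1001 libraries. Fn1 made up 24.4 to 44.2 CPM of the naive sums. It was 6.92- and 0.682-fold of its naive mean in vehicle replicates 1 and 2, where Lyz2 was 109- and 5.1-fold. This sum too does not stand for each marker. T cell markers (10 of 10) summed to 7.3 to 8.48 CPM in naive, of which Icos made up 3.8 to 4.45 CPM, with Cd3d, Cd3g, Cd4, Cd8a and Cd2 at 0, and to 113, 10.3 and 25.1 CPM in vehicle and 8.88, 40.7 and 13 CPM in GV1001 libraries.

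Natural killer cell markers (8 listed) were at or near 0 in naive libraries, where only Klrk1 had counts, and summed to 8.8, 2.48 and 1.74 CPM in vehicle and 0.378, 4.41 and 0.81 CPM in GV1001 libraries, with Prf1 at 0 in all libraries. Endothelium markers (386 to 485 CPM) and astrocyte markers (7368 to 9160 CPM) varied by much less over the 9 libraries as sums. Within the astrocyte list Gfap, an intermediate filament that reactive astrocytes make more of, was at 551, 818 and 627 CPM in naive, with 1597, 790.5 and 1344 CPM after vehicle and 428, 1208 and 852 CPM after GV1001. Its highest and lowest EAE libraries were those of most GTPases. In whole tissue, more cells of a type and more RNA per cell cannot be told apart, and the part of cell numbers in the GTPase values was not tested.

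**Figure D5:**
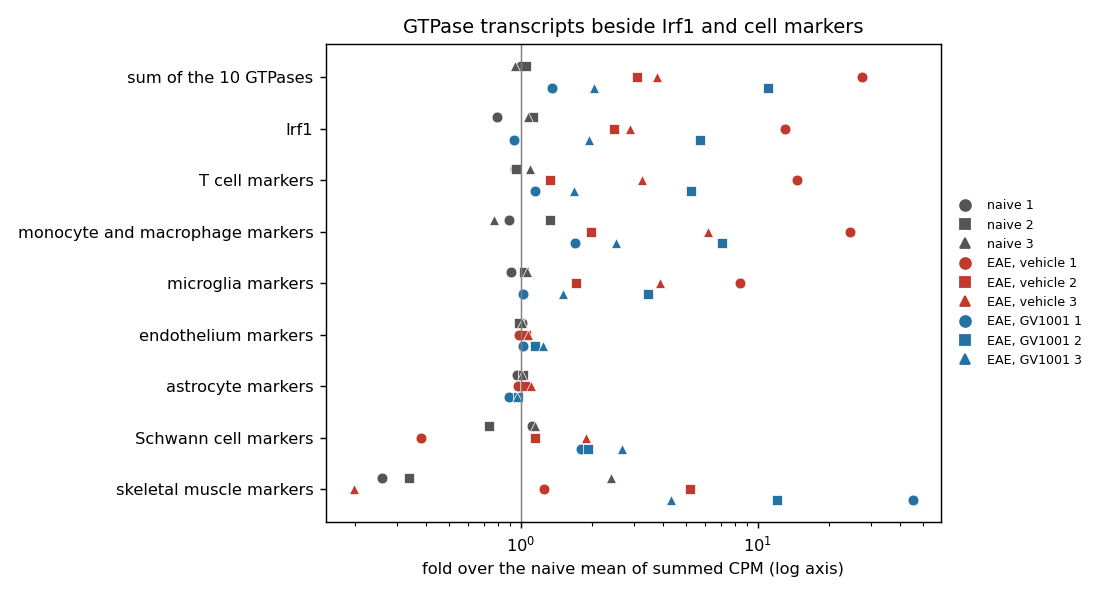
Level in each library relative to the naive mean (log axis) of the summed GTPases, Irf1 and summed cell type markers. The GTPases reach 27.7-fold in vehicle replicate 1, where monocyte and macrophage markers are at 24.5-fold and T cell markers at 14.6-fold. Microglia markers are at 8.42-fold there and endothelium markers at 0.983-fold.

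The profile over the 9 libraries was also compared with that of other genes, as the root mean square difference of log2 CPM after each gene was centred. The 11826 candidates had a mean of 5 CPM or more. Predicted symbols (Gm plus a number, or with Rik) were left out. Nearest to the mean GTPase profile were H2-K1 (0.29), a heavy chain of MHC class I, Slfn2 (0.31) and Rac2 (0.31), a GTPase of the leukocyte oxidase. Next were Tap1 (0.32), the peptide transporter of class I, and Ptpn18 (0.33), a tyrosine phosphatase. The median over all tested genes was 1.56. The members themselves were at 0.36 (Gbp5) to 0.63 (Gbp7) from the mean of the other members, and the closest pair was Gbp2 with Igtp (0.28), from different families. The farthest pairs were Iigp1 with Gbp7 and with Gbp3, both at 0.99.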

How the data were processed

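RNA of 9 spinal cord samples was read from the 3′ end, with a QuantSeq kit per the labels' protocols. The authors deposited whole-number counts of reads for each gene symbol, not normalised. Per the submitters' processing notes FastQC, STAR, HTSeq and build GRCm39 were used, with versions, annotation and treatment of multiply mapped reads not given in the sources used here. The single-library files and the combined table differed in 0 values.

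Groups came from the sample titles. Genes were filtered with filterByExpr (minimum count 10), which left 15351, normalised by TMM and tested in edgeR 4.0.16 with the quasi-likelihood F test in 1 fit of all libraries. P was adjusted by Benjamini-Hochberg over all genes tested, with a threshold of 0.05, and SE was derived from F. DESeq2 1.42.0 and limma 3.58.1 (voom) in R 4.3.3 were alternatives, beside other normalisations and filters, the replicate number as a block and leaving out each library. Log2 CPM used a prior count of 2. DESeq2's independent filtering was set to the package default after counts of calls under another setting had been seen. On data simulated with the observed dispersions, the share of false calls exceeded the nominal one in all 3 tools, by most in DESeq2 and slightly in edgeR and limma-voom. The members and lists were chosen with earlier results of these data known. Named genes were the members and, from each list, the 2 smallest p and the most abundant gene, with Ifng, Irf1, Gbp2b, Gbp4, Ifi47 and Tgtp2, and the 5 genes nearest in profile. 1 further gene of this rule is not reported here. Ifngr1, Ifngr2, Gfap, P2ry12, Sall1, Mx1, Gbp8, Gbp10 and Gbp11 were added after their values were seen. So were Usp18, Irf7, Cxcl10, Ciita, Nlrc5, Nos2, Gm4841 and Fn1. Promoter windows and transcripts are from an earlier build, GRCm38. Figures were drawn with matplotlib 3.10.9.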

Additional observations from a re-analysis of the deposited data

How the results depend on the processing

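The count of GTPases called in vehicle against naive was 0 in edgeR, 4 in DESeq2, 3 without the filter (Gbp2, Irgm2 and Iigp1), 3 at an adjusted p under 0.10, and 0 to 6 when single libraries were left out. For both EAE groups against naive it was 0, 3 in DESeq2 and 0 to 1 with single libraries left out. It was 0 under all 19 alternatives for GV1001 against vehicle and against naive. The count of all genes called in vehicle against naive was 3, with 1079 in DESeq2, 0 in limma-voom, 20 without TMM, 543 without the filter, 862 at 0.10, and 0 to 1652 with single libraries left out. It was 1652 when vehicle replicate 2 was left out, 81 for GV1001 replicate 1, 5 for vehicle replicate 1, 1 for vehicle replicate 3, and 0 for GV1001 replicate 3 or any 1 naive library. For both EAE groups against naive it was 1, with 557 in DESeq2, 0 in limma-voom, 2 in the older quasi-likelihood form, 20 without the filter and 0 to 514 with single libraries left out, the highest without vehicle replicate 2. For GV1001 against vehicle it was 0, with 12 in DESeq2 and 0 to 8 with single libraries left out. For GV1001 against naive it was 0, with 46 in DESeq2, 1 in the older form, 1 without TMM, 1 without the filter, 1 at 0.10, 5 with only the groups compared and 0 to 3 with single libraries left out. DESeq2 and the fit without the filter cover other sets of genes; the cause of the other differences was not tested.

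The median log2 fold change of the tested GTPases ran from 1.77 to 3.97 for vehicle against naive, −2.71 to 0.44 for GV1001 against vehicle, 0.90 to 2.78 for GV1001 against naive and 2.25 to 3.19 for both EAE groups against naive when single libraries were left out. Without vehicle replicate 1, GV1001 against vehicle was 0.61 for Gbp2, 0.23 for Gbp3, 0.70 for Gbp5, 0.27 for Gbp7, 1.19 for Igtp, 0.014 for Irgm1 and 0.63 for Iigp1, each of the opposite sign. Without GV1001 replicate 2 the same genes were at −2.93, −2.52, −2.90, −1.96, −2.99, −2.42 and −3.64. In GV1001 against naive, Gbp3 was at −0.25 without GV1001 replicate 2 and 1.35 without GV1001 replicate 1. With the replicate number as a block, 0 GTPases were called in any comparison, and all genes called were 0 in vehicle against naive and 0 for both EAE groups against naive. No label ties the replicate numbers across groups, and deviations from the group means correlated above 0.1 in 2 of 9 same-number pairs. Naive levels rest on 3 to 91 counts per library for each of the 8 tested genes, so small differences from naive are not detectable.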

Other observations

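Some of the sparse relatives had other patterns. Gbp2b, also called Gbp1, was at 0 counts in each naive library. It had 2, 2 and 0 counts with vehicle and 0, 11 and 5 counts with GV1001. The sums were 16 counts with GV1001 and 4 with vehicle, and it was too sparse to be tested. Gbp8 had 1 count in naive libraries, 61, 5 and 10 counts with vehicle and 7, 20 and 3 counts with GV1001, which follows the order of the abundant members in its 2 highest libraries. Gbp10 had 3, 0 and 1 counts with vehicle, 1 in naive and none with GV1001, and Gbp11 had 6, 7 and 3 counts in naive, 5, 3 and 3 with vehicle and 2, 9 and 0 with GV1001.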
